A study of Mus musculus with 20 samples.

Results

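Aminoacyl-tRNA synthetases are the enzymes that load each amino acid onto its transfer RNA, and the genes described here are the cytosolic and mitochondrial members of that family together with the scaffold genes Aimp1 and Aimp2. The members are a list of gene symbols defined by function; the choice of this family was made with earlier results of these data known. The list holds 38 genes, of which 20 encode cytosolic enzymes or their subunits, 16 encode mitochondrial enzymes and 2 encode scaffolds. Among the 15785 genes named on the array, 28 members had at least 1 probe, with 37 probes in all. A probe entered the tests where 3 or more of the 20 arrays detected it (detection p under 0.01), which left 25 probes of 23 members. These are 11 cytosolic genes with 13 probes, 10 mitochondrial genes with 10 probes and both scaffolds with 1 probe each.

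RNA came from primary cortical neurons of fetal Swiss Albino mice, taken at gestational day 15 or 16 and grown in culture to day 7. The controls (5 arrays) received no agent. Each other group (3 arrays) was kept under oxygen-glucose deprivation (OGD), which mimics in a dish the oxygen and glucose loss of stroke, at an oxygen pressure below 50 mm Hg. The exposures were 10 min, 5 h, 8 h, 15 h and 24 h long. The labels do not tell if replicates are separate cultures, and p-values here measure just the spread among arrays, which may be technical.

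The cytosolic enzymes supply charged transfer RNAs to the ribosomes of the cytoplasm, and several of them sit in a multi-synthetase complex held together by AIMP scaffolds. The mitochondrial enzymes are encoded by separate nuclear genes and serve translation inside the organelle, except that Gars and Kars each serve both compartments and are counted here as cytosolic. Many cytosolic synthetase genes are known in mouse fibroblasts as targets of ATF4, a transcription factor whose translation rises when the initiation factor eIF2 is phosphorylated in amino acid shortage, endoplasmic reticulum stress or hypoxia. The members known as such targets are called the ATF4 list below: Aars, Cars, Gars, Nars, Sars and Tars were measured here with 8 probes. The cytosolic members measured that are not on that list are Farsa, Farsb, Kars, Rars and Vars, with 5 probes.

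The median signal of an array was 53.1 to 65.4, with 37% to 40.8% of its probes detected. Hybridisation used 3 slides. Arrays of 10 min shared the first with control replicate 1, those of 5 h and 8 h shared the second with controls 4 and 5, and those of 15 h and 24 h shared the third with controls 2 and 3. Control replicate 2 stood apart from the other controls: averaged over the 8 ATF4-list probes, its level was -0.58 on the log2 scale relative to the mean of the 5 controls, against 0.12 to 0.16 on the other 4. The 10 min arrays lay between -0.62 and -0.58 on the same measure. Results are therefore given with and without that array where it matters. Its median signal and share of probes detected lay within the range of the other arrays. It was picked out by the same probes that are tested below. The larger falls, smaller p-values and higher counts without it follow in part from that choice and are no separate support. Of the marker genes for neurons, 12 had a named probe, and 9 of them were detected on every array, while Snap25, Nefl and Gad2 were detected on none. The markers Slc1a2 and S100b of astrocytes and the 5 endothelial markers were also detected on no array. The summed level of the neuron markers was 22948 to 28464 in the controls (control 2 lowest), 21164 to 22886 at 10 min, 24127 to 30327 at 5 h, 23194 to 26271 at 8 h, 18439 to 18861 at 15 h and 18869 to 21535 at 24 h. The summed level of the 7 astrocyte markers was 10208 to 12208 in the controls, 11973 to 12839 at 10 min, 10098 to 10276 at 5 h, 11460 to 12066 at 8 h, 15156 to 15934 at 15 h and 13899 to 14663 at 24 h. The 7 microglia markers summed to 208 to 229 in the controls, 260 to 271 at 10 min, 202 to 215 at 5 h, 194 to 215 at 8 h, 275 to 283 at 15 h and 261 to 325 at 24 h, with 0 to 2 of them detected on a control array, 1 to 3 at 10 min, 1 to 4 at 15 h and 1 to 5 at 24 h, and Aif1 and Itgam on none. At 10 min, 15 h and 24 h, when ATF4-list probes were low, all arrays were above all controls on the microglia sum. At the same 3 times all arrays were below all controls on the neuron sum. At 10 min the margin was small, 22886 against 22948 on control 2. That sum weighs bright probes most, such as Mapt (mean signal 9874), Gap43 (6452) and Stmn2 (5038). Of 12 tested probes of 9 neuron markers, 3 were lower at 10 min, 10 at 15 h and 4 at 24 h. None was higher, and 9.39%, 19.9% and 14.4% of all probes were lower at these times. On the astrocyte sum all arrays of 15 h and 24 h were above all controls, and those of 10 min overlapped them. The 6 oligodendrocyte markers summed to 7855 to 10374 in the controls, 7939 to 8306 at 10 min and 8761 to 9551 at 5 h. They summed to 10304 to 10710 at 8 h, 7738 to 8563 at 15 h and 7586 to 8149 at 24 h. The brightest of these markers was Olig1 (mean signal 8584), while Mog and Mag were detected on no array and Olig2 on 1. In these cultures fewer cells of a type and less RNA per cell cannot be told apart, and the part of these marker shifts in the results below was not tested.

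Every named result also rests on how probes were paired with genes. The identifiers of the signal file and of the authors' processed tables name different genes for the same values, and the names of the signal file were used, under which the member probes had a median signal of 136, against 55 under the other names. Under those other names, 4 ATF4-list probes were tested. Of these, 0 were lower than in the controls at 10 min, 2 at 15 h and 0 at 24 h, and 1 was higher at 15 h.

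Over the whole course, 13 of the 25 member probes differed between groups in limma's moderated F test over the 5 times at an adjusted p under 0.05, where 54.5% of all 10447 probes tested did. They were 9 of 13 cytosolic probes and 4 of 10 mitochondrial probes, with neither scaffold probe among them. All 8 ATF4-list probes passed, against 1 of 5 cytosolic probes off that list. The count of 13 of 25 lies near the share of all probes, so it is not a result about the members. Whether probes on and off the list differ from each other was not tested. The heat map of the member probes shows the levels behind these counts.

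**Figure D1:**
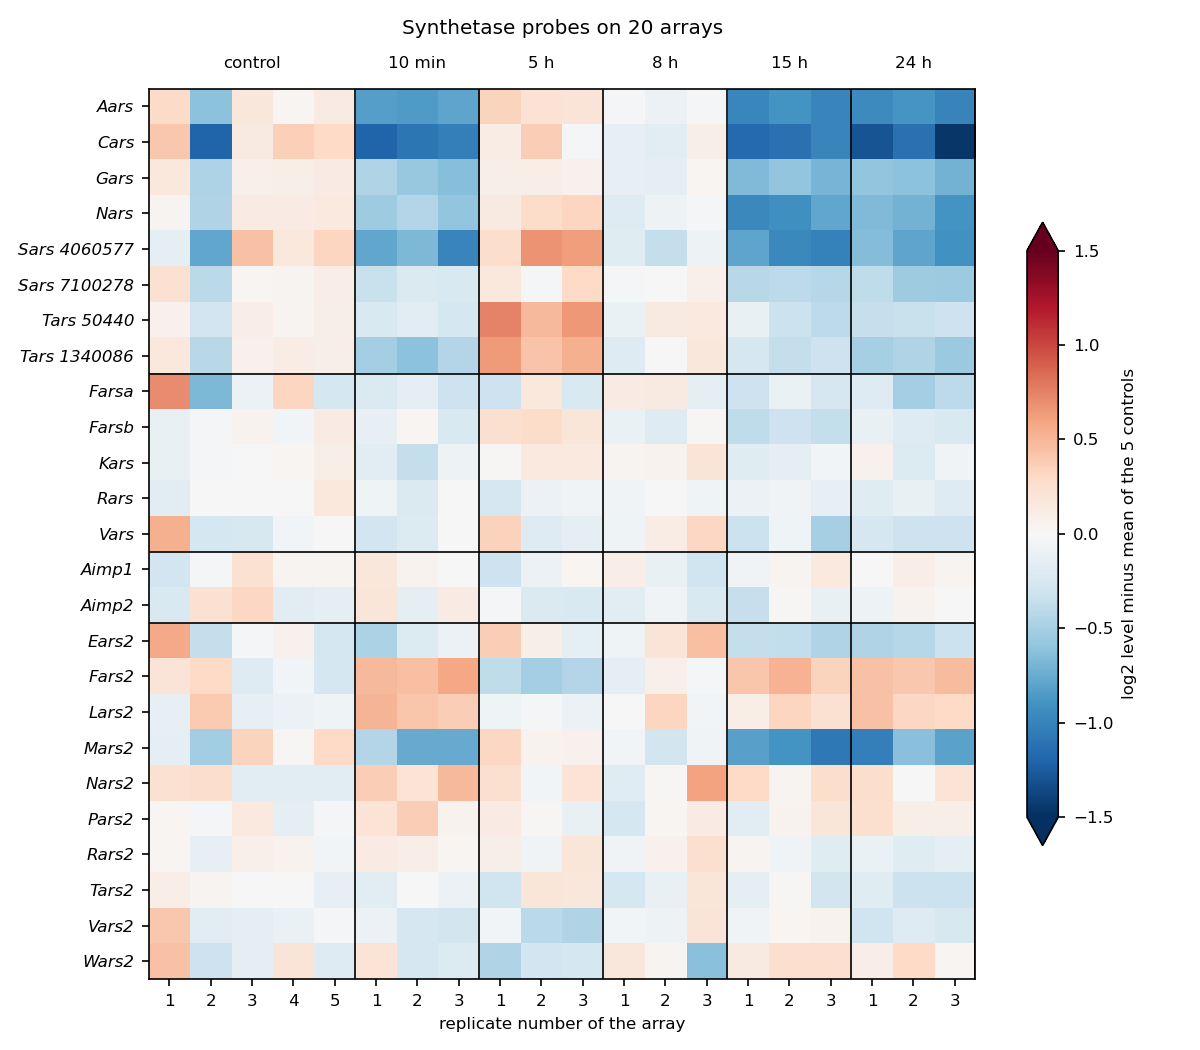
Level of each of the 25 tested member probes (rows) on each of the 20 arrays (columns, by group and replicate number), as the log2 level minus the mean of the 5 controls. Rows run from the ATF4-list enzymes through the other cytosolic enzymes and the scaffolds to the mitochondrial enzymes; the first block is low at 10 min, 15 h and 24 h and on control replicate 2.

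After 10 min of OGD, 6 of the 13 cytosolic probes were lower than in the controls and none was higher, and all 6 were on the ATF4 list. Among all probes tested at 10 min, 9.39% were lower and 11% were higher. The median log2 difference of the 8 ATF4-list probes was -0.54, that of the 5 other cytosolic probes was -0.16, and that of all probes was -0.01. Of the 10 mitochondrial probes, 1 was lower (Mars2) and 2 were higher (Fars2 and Lars2), and neither Aimp1 nor Aimp2 passed.

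Cars, the cysteinyl-tRNA synthetase, had the largest fall of the member probes that passed at 10 min. Its log2 level was 9.40, 7.79, 9.13, 9.35 and 9.29 on control replicates 1 to 5 and 7.80, 7.90 and 7.97 on the 10 min arrays. The 10 min arrays lay more than 1 log2 unit below 4 of the controls, and control 2 lay as low as they did. The difference was -1.10 (SE 0.244, adjusted p = 0.00489 by limma), or 2.15-fold lower at 10 min. Without control 2 it was -1.40 (adjusted p = 2.13e-08), and every 10 min array was then below every control.

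Aars, the alanyl-tRNA synthetase, read 11.70, 10.80, 11.58, 11.44 and 11.54 on the controls and 10.59, 10.56 and 10.61 at 10 min. Here the groups did not overlap even with control 2 included. The log2 difference was -0.82 (SE 0.136, adjusted p = 0.000699). Sars, which charges serine, had 2 tested probes. The dimmer one, 4060577, read 8.10, 7.47, 8.69, 8.41 and 8.58 on the controls and 7.47, 7.57 and 7.26 at 10 min, a difference of -0.82 (SE 0.193, adjusted p = 0.00715). The brighter one, 7100278, differed in the same direction by -0.26 but did not pass (adjusted p = 0.101), and it passed without control 2 (-0.36, adjusted p = 0.00308).

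Gars, the glycyl-tRNA synthetase of both compartments, read 12.59, 11.97, 12.51, 12.52 and 12.56 on the controls and 11.98, 11.86 and 11.79 at 10 min. Only control 2 reached the level of the 10 min arrays, and the difference was -0.55 (SE 0.112, adjusted p = 0.00265). Nars, for asparagine, read 10.45, 9.96, 10.53, 10.54 and 10.56 on the controls and 9.87, 9.96 and 9.82 at 10 min, with a difference of -0.52 (SE 0.116, adjusted p = 0.00491). Tars, for threonine, also had 2 tested probes. Probe 1340086 read 7.71, 7.14, 7.62, 7.68 and 7.65 on the controls and 7.05, 6.95 and 7.12 at 10 min, a difference of -0.52 (SE 0.114, adjusted p = 0.00465) with no overlap between the groups. Probe 50440 was detected on 1 of 5 control arrays and none at 10 min, and its difference of -0.22 did not pass (adjusted p = 0.134).

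**Figure D2:**
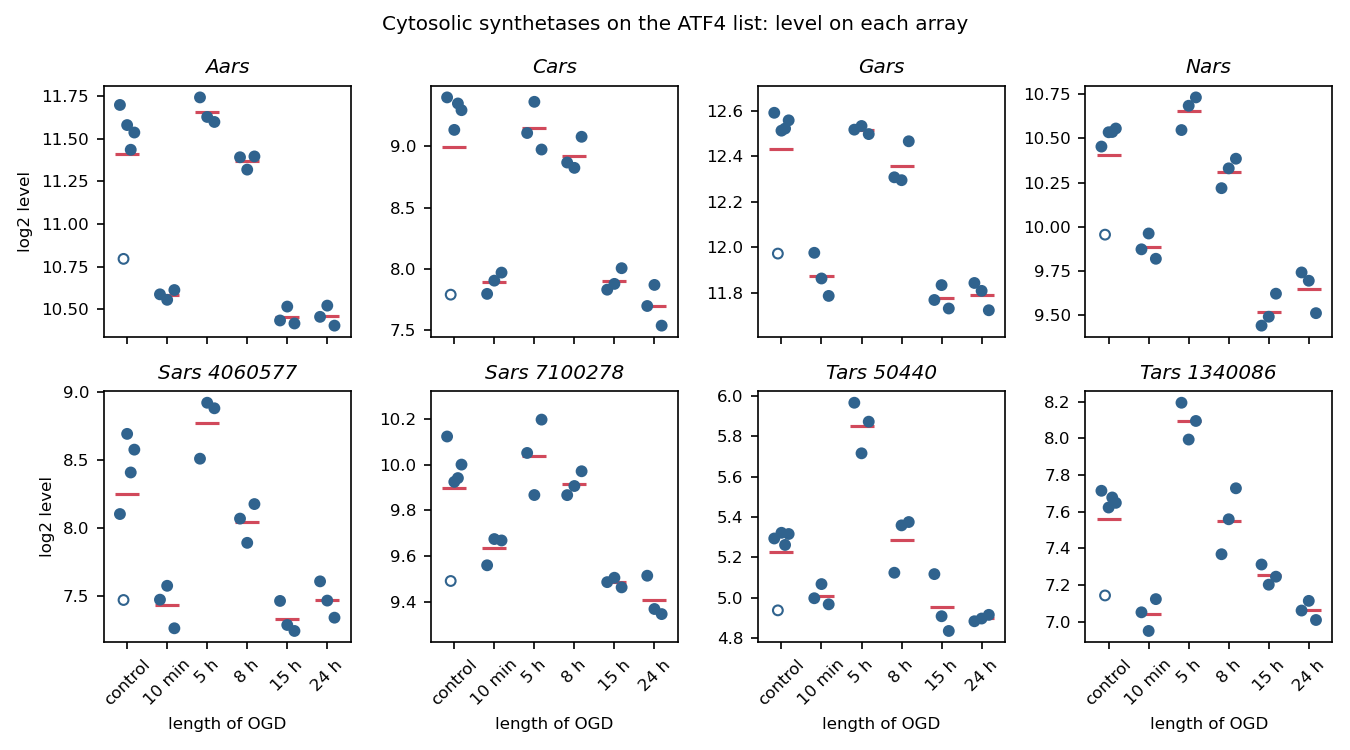
Log2 level of the 8 ATF4-list probes on each array, by length of OGD. Points are arrays, the open circle is control replicate 2 and the horizontal bars are group means; in each panel the 10 min, 15 h and 24 h points lie below the 4 filled control points.

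Of the 5 cytosolic probes off the ATF4 list, none passed at 10 min; whether their differences are smaller than those on the list was not tested. Vars, for valine, read 9.37, 8.57, 8.60, 8.80 and 8.84 on the controls and 8.55, 8.63 and 8.84 at 10 min, a difference of -0.16 with a 95% interval of -0.50 to 0.17 (adjusted p = 0.501). Rars, for arginine, read 8.19, 8.35, 8.36, 8.36 and 8.51 on the controls and 8.29, 8.14 and 8.36 at 10 min. Its interval, -0.26 to 0.08, holds no change as large as that of Cars, Aars or Gars. Farsa, the alpha subunit of the phenylalanine enzyme, varied widely among the controls (6.93, 5.55, 6.14, 6.55 and 5.96) and read 6.01, 6.09 and 5.91 at 10 min, with a difference of -0.22 and an interval of -0.65 to 0.20. Its partner subunit Farsb differed by -0.11 (adjusted p = 0.361), and Kars, the lysyl enzyme of the complex, by -0.20 (adjusted p = 0.101). Of the members known to sit in the multi-synthetase complex, Kars, Rars, Aimp1 and Aimp2 were the measured ones, and none of these 4 passed at 10 min.

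Within the slide that holds the 10 min arrays there is 1 control, replicate 1. With slide as a block, which for each time equals the difference from the controls of its own slide, 10 member probes were lower and 1 was higher at 10 min, where 11.8% of all probes were called in either direction. The fall of Aars was then -1.11 (adjusted p = 0.00261) and that of Cars -1.51 (adjusted p = 0.00623). Farsa (-0.93, adjusted p = 0.0194), Vars (-0.70, adjusted p = 0.0323), Ears2 (-0.83, adjusted p = 0.0194) and Vars2 (-0.61, adjusted p = 0.0186) passed in this fit and not in the fit without the block, and control 1 read highest of the 5 controls for each of these 4. Mars2, Fars2 and probe 4060577 of Sars did not pass with the block (adjusted p = 0.181, 0.208 and 0.147). Without control 2, all 8 ATF4-list probes passed as lower at 10 min (Tars probe 50440, not well above background on any 10 min array, among them), and 9 member probes were lower and 3 higher in all, where 33.8% of all probes were called.

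Promoter windows of the members are shown because the ATF4-list probes moved together. The letters TGATGNAA, a form of the C/EBP-ATF response element that ATF4 is known to bind, were searched on both strands of 300 base RefSeq windows of build GRCm38.p6, from 250 bases before to 50 bases after the gene's start. Of 32851 windows, 3.97% held a match. Of the 6 ATF4-list genes that were tested, 4 had a window and 3 of these held a match (Aars, Gars and Tars, but not Sars), while 0 of 3 windows of tested cytosolic genes off the list and 0 of 9 genes of the tested mitochondrial group held one. Aars held a second match that begins 10 bases into the transcript. Below are the 150 bases before the start on the gene's own strand, with the match in capitals, for these 3 genes and for Asns, the asparagine synthetase gene of the ATF4 pathway (the windows of Atf4 and Ddit3, also searched, held no match), beside Kars and Farsa, which hold none. Of the genes on the list that were not tested, Iars and Yars held a match that begins 8 and 4 bases into the transcript, and Eprs and Mars held none. The list was chosen as known ATF4 targets, so matches in it are no support from these data. A match is a description of the letters, and no binding was measured.
Aars, chr8:111033692-111033841, plus strand: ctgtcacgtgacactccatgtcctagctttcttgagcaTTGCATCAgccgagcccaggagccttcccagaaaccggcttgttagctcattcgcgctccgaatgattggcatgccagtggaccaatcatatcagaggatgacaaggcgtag
Gars, chr6:55037851-55038000, plus strand: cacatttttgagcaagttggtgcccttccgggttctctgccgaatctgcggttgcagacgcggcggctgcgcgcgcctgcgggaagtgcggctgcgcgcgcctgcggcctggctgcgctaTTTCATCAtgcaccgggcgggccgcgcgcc
Tars, chr15:11399659-11399808, minus strand: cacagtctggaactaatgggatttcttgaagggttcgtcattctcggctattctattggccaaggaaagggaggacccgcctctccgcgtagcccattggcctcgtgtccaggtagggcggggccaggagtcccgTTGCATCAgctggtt
Asns, chr6:7693210-7693359, minus strand: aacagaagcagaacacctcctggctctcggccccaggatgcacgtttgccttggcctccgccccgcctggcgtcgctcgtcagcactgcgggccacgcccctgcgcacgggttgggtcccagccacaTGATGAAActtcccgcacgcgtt
Kars, chr8:112011355-112011504, minus strand: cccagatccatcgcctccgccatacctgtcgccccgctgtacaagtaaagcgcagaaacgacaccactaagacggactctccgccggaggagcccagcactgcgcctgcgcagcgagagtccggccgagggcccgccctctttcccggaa
Farsa, chr8:84856836-84856985, plus strand: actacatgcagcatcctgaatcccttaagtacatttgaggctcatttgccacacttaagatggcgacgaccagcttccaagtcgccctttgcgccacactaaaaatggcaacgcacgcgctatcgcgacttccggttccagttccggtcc

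At 5 h, 2 of the 13 cytosolic probes were higher than in the controls, both of them probes of Tars, and none was lower. Of the 11 that did not pass, 9 had a positive difference, and Rars and Farsa a negative one of -0.13 each. Without control 2, Cars (-0.15), Vars (-0.06) and Gars (-0.03) were negative too. Among all probes at 5 h, 1.68% were higher and 1.15% lower. Tars probe 1340086 read 8.19, 7.99 and 8.10 at 5 h, above its highest control of 7.71, a difference of 0.53 (SE 0.114, adjusted p = 0.0224). Probe 50440 read 5.97, 5.72 and 5.87, with every 5 h array detected and 1 of 5 controls, a difference of 0.63 (SE 0.1, adjusted p = 0.0038). Both probes thus placed all 5 h arrays above all controls. When any 1 of the 5 h arrays was left out, 1 member probe passed at 5 h. Neither Tars probe passed with slide as a block (adjusted p = 0.222 and 0.0989), where 0 member probes and 0% of all probes were called. Without control 2, both Tars probes still passed (adjusted p = 0.0207 and 0.00337), against 2.07% of all probes.

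The median of the 8 ATF4-list probes at 5 h was 0.25 with all controls and 0.11 without control 2. Setting 5 h against 10 min, which lie on different slides, all 8 were higher, with a median difference of 0.95. Farsb (0.34, adjusted p = 0.00772) and Kars (0.30, adjusted p = 0.0199) were higher as well, so that 10 of 13 cytosolic probes passed, where 17.6% of all probes were higher and 18.2% lower. Probe 4060577 of Sars rose from 7.47, 7.57 and 7.26 to 8.51, 8.92 and 8.88, or 1.34 (SE 0.216, adjusted p = 0.000172). Cars rose by 1.26, Aars by 1.07, Nars by 0.77 and Gars by 0.64. Under the slide block, 4 member probes were higher at 5 h than at 10 min (Aars, both Tars probes and Ears2) and 0 lower, against 4.39% of all probes.

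At 8 h, 0 member probes had an unadjusted p under 0.05 in limma's test against the controls, where 668 of all 10447 probes did. At an adjusted p under 0.05, 0 member probes passed, and 0% of all probes were higher and 0% lower. The same counts of 0 held for the members with slide as a block (0% of all probes) and without control 2 (0%). The median of the 8 ATF4-list probes was -0.06. Against 5 h, the Tars probes fell to 7.37, 7.56 and 7.73 (1340086) and to 5.12, 5.36 and 5.37 (50440). These differences were -0.54 (SE 0.128, adjusted p = 0.0318) and -0.57 (SE 0.112, adjusted p = 0.0169), and 8 h arrays of both probes overlapped the controls. Left without the third 5 h array, or without the first or the second 8 h array, 0 member probes passed. With all arrays no other member probe passed between 5 h and 8 h, where 1.23% of all probes were higher and 1.07% lower. Fars2 was also called with slide as a block, as higher at 8 h (adjusted p = 0.0461), against 4.19% of all probes. Without control 2, 6 member probes were lower and 1 was higher at 8 h than at 5 h, against 6.86% of all probes. That array belongs to neither group and enters this comparison only through the spread shared by all groups.

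At 15 h, all 8 ATF4-list probes passed as lower than in the controls, with a median difference of -0.77 against -0.02 for all probes. One of them, Tars probe 50440, was detected on 1 of 5 controls and on no array at 15 h or 24 h, and the mean of the controls lay below the lowest signal that counts as detected, so no fold is given for it. The other 7 probes had a median of -0.89 at 15 h and -0.76 at 24 h. Among all probes, 19.9% were lower and 18.7% higher. Aars read 10.44, 10.52 and 10.42 (difference -0.95, adjusted p = 2.71e-05), Cars 7.83, 7.88 and 8.01 (-1.09, adjusted p = 0.00163) and Nars 9.44, 9.49 and 9.62 (-0.89, SE 0.116, adjusted p = 1.19e-05). For Aars and Nars all 15 h arrays lay below all controls, and for Cars they lay below 4 of them. Gars read 11.77, 11.84 and 11.73 (-0.65, adjusted p = 0.00015), and Sars probe 4060577 read 7.46, 7.28 and 7.24 (-0.92, adjusted p = 0.000901).
Of the 5 other cytosolic probes, Farsb alone passed. It read 10.33, 10.42, 10.50, 10.41 and 10.57 on the controls and 10.07, 10.13 and 10.08 at 15 h, a difference of -0.35 (SE 0.0815, adjusted p = 0.0021) with no overlap. With slide as a block, that is against controls 2 and 3, 7 member probes were lower and 1 was higher, against 28% of all probes. Nars (-0.73), Aars (-0.73), Sars probe 4060577 (-0.75), Gars (-0.46) and Farsb (-0.36) passed in that fit, and Cars did not (-0.56, adjusted p = 0.0941). Without control 2, 11 member probes were lower and 2 higher, against 45.4% of all probes.

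Between 8 h and 15 h, 8 of the 13 cytosolic probes passed as lower, 7 of them on the ATF4 list, where 16.9% of all probes were lower and 16% higher. Tars probe 50440, detected on 1 of 3 arrays at 8 h and none at 15 h, is among the 7. Without the third 8 h array, and likewise without the third 15 h array, 7 member probes passed in place of 11. The difference was -0.91 for Aars, -1.02 for Cars, -0.79 for Nars and -0.58 for Gars. These times lie on different slides, and with slide as a block 0 member probes passed, against 6.7% of all probes. The differences were then -0.61 for Aars, -0.16 for Cars, -0.49 for Nars and -0.28 for Gars. That fit ties the third slide to the others through controls 2 and 3, so the outlying control 2 enters it, and its part was not tested.

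At 24 h the ATF4-list enzymes were again low. All 8 ATF4-list probes, Tars probe 50440 with the limit given for 15 h, passed as lower than in the controls, with a median difference of -0.70, where 14.4% of all probes were lower and 14.7% higher. Cars read 7.70, 7.87 and 7.54 (-1.29, SE 0.244, adjusted p = 0.000661, or 2.45-fold lower). Aars read 10.46, 10.52 and 10.40 (-0.95), Nars 9.74, 9.69 and 9.51 (-0.76), Gars 11.84, 11.81 and 11.72 (-0.64) and Tars probe 1340086 7.06, 7.11 and 7.01 (-0.50, adjusted p = 0.0028). No cytosolic probe off the list passed at 24 h; their differences ran from Farsa at -0.36 (adjusted p = 0.19) through Vars at -0.29, Farsb at -0.18 and Rars at -0.17 to Kars. Without control 2, Farsa passed (-0.53, adjusted p = 0.0192). With slide as a block, 5 member probes were lower (Aars, Cars, Gars, Nars and Mars2), against 13.8% of all probes, and without control 2, 11 were lower and 2 higher, against 39%. Between 15 h and 24 h, both on the third slide, 0 member probes had an unadjusted p under 0.05, against 1568 of all 10447 probes. At an adjusted p under 0.05, 0 member probes passed limma's test, where 0.431% of all probes were higher and 0.613% lower. The fit with slide as a block also called 0 of them, against 2.07% of all probes.

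**Figure D3:**
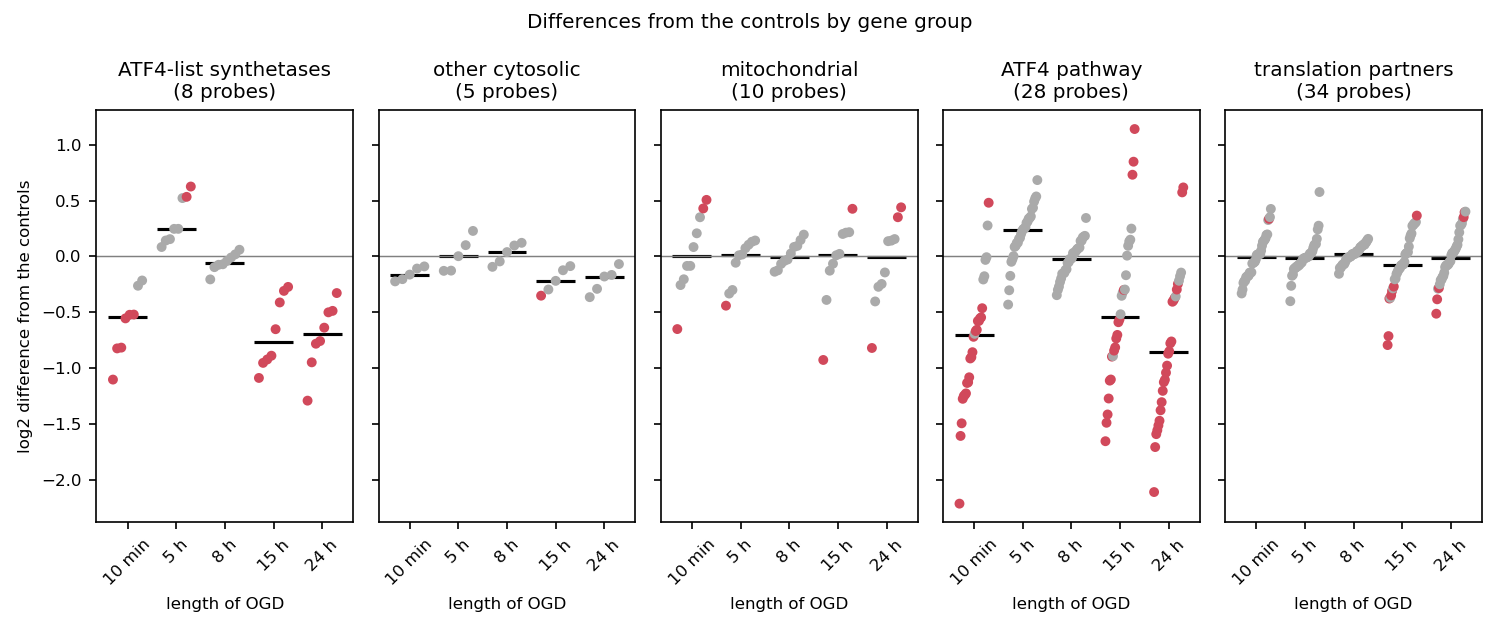
Log2 difference from the controls (vertical axis) of every tested probe at each length of OGD, in panels for the ATF4-list synthetases, the other cytosolic enzymes, the mitochondrial enzymes, the ATF4 pathway and the translation partners. Red points passed the test (adjusted p under 0.05), grey points did not, and the bar is the median of the panel's probes, at -0.54, 0.25, -0.06, -0.77 and -0.70 for the ATF4-list synthetases.

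By structural class, 10 of the cytosolic probes belong to class II, whose catalytic domain is built on an antiparallel sheet, and 3 to class I, which has a Rossmann fold. At 15 h, 8 of 10 class II probes and 1 of 3 class I probes (Cars) were lower, where 19.9% of all probes were. The 8 include 2 probes each of Sars and Tars, and Tars probe 50440 was detected on no array at 15 h. The class I genes measured off the ATF4 list are Rars and Vars, so class and list overlap heavily here.

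The mitochondrial enzymes had no common direction. Their median difference was 0.01 at 5 h and 0.02 at 15 h, where that of all probes was -0.005 and -0.02. Of the 10 probes, 5 lay below the controls at 10 min and 5 at 24 h. Unchanged probes can split evenly too, so these counts are not a result about the mitochondrial enzymes. Fars2, the mitochondrial phenylalanine enzyme, ran opposite to the ATF4-list probes. It read 9.98, 10.09, 9.60, 9.74 and 9.52 on the controls, 10.28, 10.24 and 10.36 at 10 min, 9.41, 9.28 and 9.35 at 5 h, 9.65, 9.87 and 9.76 at 8 h, 10.21, 10.31 and 10.12 at 15 h and 10.22, 10.19 and 10.26 at 24 h. All arrays at 10 min, 15 h and 24 h were above all controls, and all arrays at 5 h were below them. The differences were 0.51 (adjusted p = 0.00425) at 10 min, -0.44 (adjusted p = 0.0381) at 5 h, 0.43 (adjusted p = 0.00449) at 15 h and 0.44 (adjusted p = 0.00533) at 24 h. From 10 min to 5 h it fell by 0.95 (SE 0.123, adjusted p = 4.08e-05). Under the slide block, only its rise at 15 h among the 5 times passed (0.37, adjusted p = 0.0355), and without control 2 its fall at 5 h did not (adjusted p = 0.0552).

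Lars2, the mitochondrial leucine enzyme, read 6.78, 7.29, 6.78, 6.81 and 6.84 on the controls and 7.41, 7.32 and 7.27 at 10 min. Control 2 again lay with the 10 min arrays, here on the high side. The difference was 0.43 (SE 0.113, adjusted p = 0.0125) at 10 min and 0.35 (adjusted p = 0.0241) at 24 h, where the arrays read 7.34, 7.21 and 7.20. At 5 h it read 6.84, 6.88 and 6.81, lower than at 10 min by -0.49 (adjusted p = 0.00584), at 8 h 6.90, 7.22 and 6.86, and at 15 h 7.0, 7.22 and 7.13 (difference from the controls 0.22, adjusted p = 0.136, and 0.32 with adjusted p = 0.00737 without control 2). Its rise at 24 h did not pass with slide as a block (adjusted p = 0.325).

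Mars2, the mitochondrial methionine enzyme, was near the detection limit. It read 5.48, 5.11, 5.96, 5.65 and 5.93 on the controls, of which 4 of 5 were detected, and it was not well above background on any array at 10 min, 15 h or 24 h. Bounds over each group's mean were taken against the lowest signal that counts as detected on those arrays. By these it was at least 1.17-fold lower at 10 min, at least 1.22-fold lower at 15 h and at least 1.14-fold lower at 24 h. Limma's test was of the measured levels and not of these bounds, with adjusted p = 0.00799, 0.00013 and 0.000702. At 5 h all 3 arrays were detected, at 5.94, 5.68 and 5.69, within the range of the controls. It was at least 1.30-fold higher there than at 10 min (adjusted p = 0.00198 for the measured difference, not for this bound). At 8 h it read 5.59, 5.35 and 5.57.

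Ears2, the mitochondrial glutamate enzyme, read 7.23, 6.30, 6.63, 6.72 and 6.39 on the controls, 6.18, 6.44 and 6.57 at 10 min, 7.02, 6.74 and 6.52 at 5 h, 6.59, 6.85 and 7.10 at 8 h, 6.30, 6.29 and 6.21 at 15 h and 6.20, 6.22 and 6.33 at 24 h. It passed between 8 h and 15 h (-0.58, SE 0.187, adjusted p = 0.0212) and in the F test (adjusted p = 0.0257). Against the controls it passed at no time with all arrays and no block, and with slide as a block it was lower at 10 min, as given above. Without control 2 it was lower than the controls at 15 h (-0.48, adjusted p = 0.0217) and 24 h (-0.49, adjusted p = 0.0214). Nars2, Pars2, Rars2, Tars2, Vars2 and Wars2, the mitochondrial enzymes for asparagine, proline, arginine, threonine, valine and tryptophan, passed in none of the 9 comparisons, although Nars2 was higher at 10 min once control 2 was left out (0.42, adjusted p = 0.0397).

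**Figure D4:**
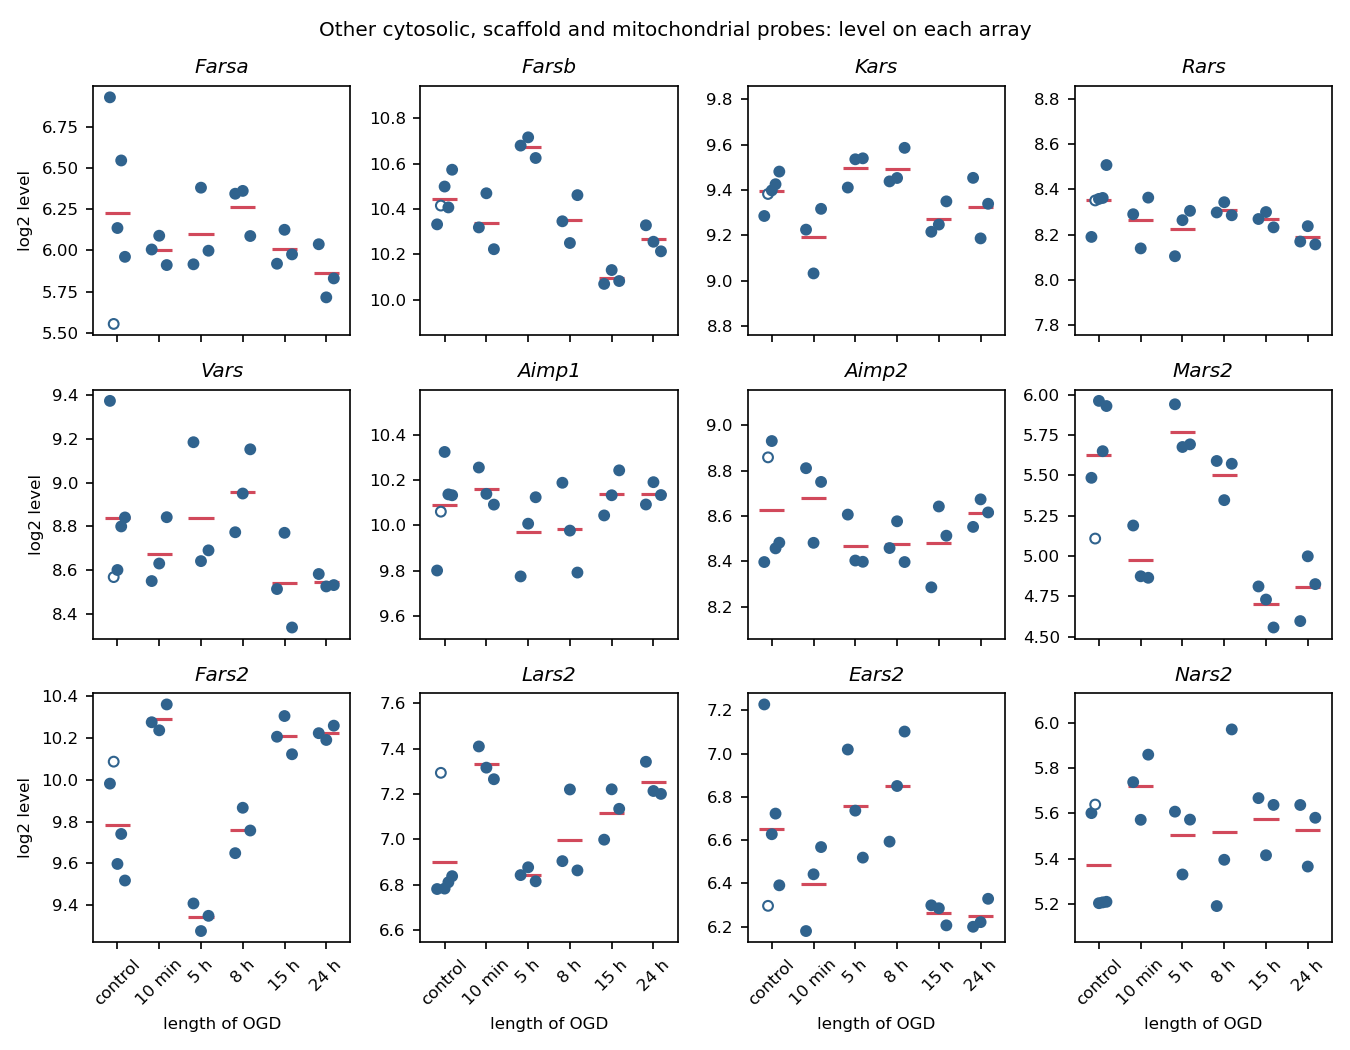
Log2 level on each array of the 5 cytosolic probes off the ATF4 list, the scaffolds Aimp1 and Aimp2, and the mitochondrial probes of Mars2, Fars2, Lars2, Ears2 and Nars2, by length of OGD. Points are arrays, open circles are control replicate 2 and bars are group means; Fars2 is high at 10 min, 15 h and 24 h and low at 5 h.

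The scaffolds passed in none of the 9 comparisons. Aimp1 read 9.80, 10.06, 10.32, 10.14 and 10.13 on the controls, 10.25, 10.14 and 10.09 at 10 min, 9.77, 10.01 and 10.12 at 5 h, 10.19, 9.98 and 9.79 at 8 h, 10.04, 10.13 and 10.24 at 15 h and 10.09, 10.19 and 10.13 at 24 h. Aimp2, its partner, read 8.40, 8.86, 8.93, 8.46 and 8.48 on the controls, 8.81, 8.48 and 8.75 at 10 min, 8.61, 8.40 and 8.40 at 5 h, 8.46, 8.58 and 8.40 at 8 h, 8.29, 8.64 and 8.51 at 15 h and 8.55, 8.67 and 8.62 at 24 h. The groups overlapped in every case, and the 95% intervals at 10 min were -0.16 to 0.31 for Aimp1 and -0.20 to 0.32 for Aimp2. Aimp2 was lower at 15 h with slide as a block (-0.41, adjusted p = 0.0166).

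The rest of the ATF4 pathway was measured with 28 probes of 24 genes, chosen as known members of the pathway. Of these probes, 21 were lower and 1 was higher at 10 min (median -0.71), 0 passed at 5 h and at 8 h, 14 were lower and 3 higher at 15 h (median -0.54), and 22 were lower and 2 higher at 24 h (median -0.86). Among all probes 9.39% were lower and 11% higher at 10 min, 19.9% and 18.7% at 15 h, and 14.4% and 14.7% at 24 h. With slide as a block, 17 of the 28 were lower at 10 min, 8 at 15 h and 12 at 24 h, against 11.8%, 28% and 13.8% of all probes called in either direction. At 5 h, 9 of the 28 had an unadjusted p under 0.05, against 2281 of all 10447 probes. At 8 h, 0 did, against 668 of all 10447 probes. Whether the count at 5 h differs from the share of all probes was not tested. Atf4 itself (probe 730441) read 11.07, 9.22, 10.88, 10.89 and 10.91 on the controls, 9.43, 9.52 and 9.45 at 10 min, 11.47, 11.29 and 11.07 at 5 h, 10.68, 10.71 and 10.94 at 8 h, 9.55, 9.37 and 9.56 at 15 h and 9.0, 9.19 and 9.05 at 24 h. Control 2 was again at the level of the 10 min arrays. The differences were -1.13 (SE 0.271, adjusted p = 0.00797) at 10 min, 0.68 (adjusted p = 0.154) at 5 h, -1.10 (adjusted p = 0.00326) at 15 h and -1.51 (adjusted p = 0.00041) at 24 h. With slide as a block, the difference at 15 h did not pass (adjusted p = 0.152).

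Asns (probe 7100687) differed by -1.24 at 10 min, -1.49 at 15 h and -1.71 at 24 h, and its dimmer probe 110368 by -0.69 (adjusted p = 0.0712), -1.11 and -1.04. Atf5, a related transcription factor, was lower at 10 min (-1.61) and 24 h (-1.38), while at 15 h its difference was -0.17 (adjusted p = 0.509), or -0.38 (adjusted p = 0.00691) without control 2. Slc7a5, a carrier of large neutral amino acids, differed by -1.49, -0.56 and -1.30 at 10 min, 15 h and 24 h, and the difference at 15 h did not pass with slide as a block (adjusted p = 0.429). Slc7a11, the cystine carrier, went the other way at 15 h, with a rise of 1.14 (adjusted p = 7.87e-06), after a fall of 0.46 at 10 min (adjusted p = 0.0255, and 0.0509 with slide as a block). Ddit3, which encodes the CHOP factor, was lower at 10 min (-0.55, adjusted p = 0.00894) and 24 h (-0.39, adjusted p = 0.0332), and at 15 h its difference was -0.30 (adjusted p = 0.0876). Without control 2, Ddit3 passed at 15 h as well (-0.41, adjusted p = 0.00433), and with slide as a block it did not pass at 24 h (adjusted p = 0.371).

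Partners of the synthetases in translation, such as elongation factors and transfer RNA modifying enzymes, were measured with 34 probes of 27 genes. Of these, 0 were lower and 1 was higher at 10 min, 0 passed at 5 h and 8 h, 6 were lower and 1 higher at 15 h, and 3 were lower and 2 higher at 24 h. These shares are at or below those of all probes (19.9% lower and 18.7% higher at 15 h, 14.4% and 14.7% at 24 h), so the counts are not a result about these genes. Eef1a2, the elongation factor form of neurons and muscle, differed by 0.02 at 10 min, -0.71 (adjusted p = 8.60e-06) at 15 h and -0.38 (adjusted p = 0.00323) at 24 h by probe 2260162. Its second probe, 5290086, differed by -0.79 at 15 h (adjusted p = 0.00615) and by -0.21 at 24 h (adjusted p = 0.493). Nsun2, a transfer RNA methyltransferase, was lower at 15 h (-0.38, adjusted p = 0.00697), and Eef2, which moves the ribosome along, passed at none of the 5 times against the controls with any of its 3 probes, while without control 2 probe 1050369 passed as lower at 10 min (-0.28, adjusted p = 0.0261) and 24 h (-0.25, adjusted p = 0.0365).

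**Figure D5:**
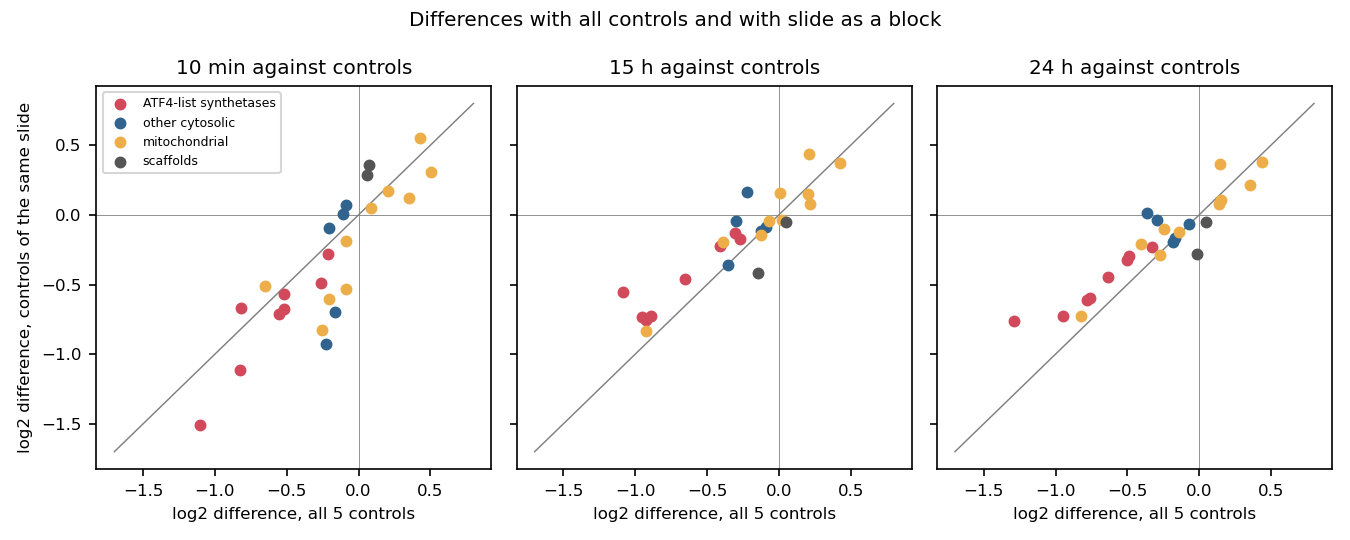
Log2 difference from the controls of each of the 25 member probes with all 5 controls (horizontal axis) and with slide as a block (vertical axis), at 10 min, 15 h and 24 h. Points are probes coloured by group and the diagonal marks equal values; at 15 h and 24 h the ATF4-list probes lie closer to 0 with the block, with medians of -0.51 and -0.52 against -0.77 and -0.70.

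The other members could not be tested. Hars, Iars (3 probes), Hars2 and Yars2 were named but detected on no array, as were further probes of Cars, Vars, Rars2 and Wars2. Yars was detected on 2 of 20 arrays, 1 control and 1 at 5 h, and read 4.56 to 5.53. Dars, Eprs, Lars, Mars, Qars, Wars, Aars2, Cars2, Iars2 and Sars2 had no named probe. These data therefore hold no tested probe for most enzymes of the multi-synthetase complex.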

How the data were processed

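Total RNA of the 20 samples was read as biotinylated cRNA on bead arrays (Illumina MouseRef-8 v1.1), per the labels. The deposited BeadStudio 3.1.7 profile, per the file headers, holds for 24620 probes the average signal, an intensity that was not normalized, and a detection score equal to 1 minus the detection p; 120 other columns of values per array were not used. The deposited normalized tables hold a ratio, each intensity divided by the array's median and by the median of the controls, as checked on the values; they served as an alternative. In these tables each of the 5 control columns carries the values of a different control, and the profile was used to tell the arrays apart. Probes were named by the profile's own identifier, looked up through the normalized table and the platform annotation (20614 probes named).

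After 7 bacterial control probes were left out, neqc of limma 3.58.1 (R 4.3.3, offset 16) gave log2 levels. The tests took the 10447 probes detected (p under 0.01) on 3 or more arrays. All 20 arrays entered a single model of 6 groups, tested two-sided with limma's moderation, and p-values were adjusted by Benjamini-Hochberg over all probes of a comparison at 0.05. The fit was also run on simulated data of independent noise, without a slide effect or an outlying control. That run does not bear on either of these. The number of arrays limits the precision (median SE 0.122 against the controls). Folds are differences of these log2 levels. Levels of different probes were not compared. No share of all probes is given for groups whose arrays did not overlap, so such statements describe the named probe only.

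The members and gene lists were chosen with earlier results of these data known. Values on every array are given for the 6 cytosolic probes with the smallest and the 3 with the largest adjusted p at 10 min, the 4 mitochondrial probes with the smallest in the F test, every probe past the test at 5 h, 8 h, or between 5 h and 8 h or 15 h and 24 h, and both scaffolds. Of each pathway list, the 4 probes with the smallest adjusted p are named, and Atf4, Asns and Ddit3 always. Alternatives were slide or replicate as a block, slide-matched controls, other normalizations, filters, thresholds and names, fits of only the groups compared, and leaving out arrays.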

Additional observations from a re-analysis of the deposited data

Results flagged for a closer look

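In the 5 controls, 7 member probes had 1 array far from the others, by the gap to its nearest neighbour as a share of the range; chance gives about 1 in 20 such groups. Control 2 was the lowest for Tars probes 1340086 (0.84) and 50440 (0.843), Gars (0.873), Cars (0.835) and Nars (0.83), and the highest for Lars2 (0.889), and control 1 was the highest for Vars2 (0.749). The share that this array has in each comparison is given by the values without it, above.

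Effects of different lengths of OGD against the same controls differed in tests of the times themselves. Between 10 min and 5 h, the log2 differences of 5 h minus 10 min that passed were 1.34 and 0.40 for Sars (probes 4060577 and 7100278), 1.05 and 0.84 for Tars (1340086 and 50440), 1.26 for Cars, 1.07 for Aars, 0.77 for Nars, 0.64 for Gars, 0.34 for Farsb and 0.30 for Kars among the cytosolic enzymes. Among the mitochondrial ones they were -0.49 for Lars2, -0.95 for Fars2 and, as measured, 0.79 for Mars2. Mars2 and Tars probe 50440 were not well above background on any 10 min array, so that only bounds hold for them, at least 1.30-fold and at least 1.37-fold higher at 5 h. Between 5 h and 8 h, the Tars probes differed by -0.54 (1340086) and -0.57 (50440). Between 8 h and 15 h, the differences were -1.02 for Cars, -0.91 for Aars, -0.79 for Nars, -0.72 and -0.43 for Sars (4060577 and 7100278), -0.58 for Gars, -0.26 for Farsb, -0.58 for Ears2 and 0.45 for Fars2. The measured differences of Mars2 (-0.80) and Tars probe 50440 (-0.33) are limited by background at 15 h, where neither was detected on any array; Mars2 was at least 1.12-fold lower, and for the Tars probe no fold is given. Apart from the step from 5 h to 8 h, these pairs of times lie on different slides, and time and slide cannot be told apart without the controls that the slides share.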

How the results depend on the processing

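Of 60 calls of a member probe over the 9 comparisons, 0 changed direction under any alternative that could be computed for it. With slide as a fixed block 23 of 60 still passed, and as a random block 45. Counts below are of member probes that passed, main value first. At 10 min there were 9, with 3 under a replicate block, 1 in a fit of only the groups compared and 3 with the names of the processed rows. At 5 h there were 3, with 0 under a fixed slide block, slide-matched controls or only the groups compared, and 1 under a random slide block, an adjusted p under 0.01, the other names, or without 5 h replicate 1 and 8 h replicate 3. At 15 h there were 11, with 1 for slide-matched controls. At 24 h there were 11, with 5 under a fixed slide block, 0 for slide-matched controls, 7 under a replicate block and 4 with the other names. For 5 h against 10 min there were 13, with 4 under a fixed slide block and 5 with the other names. For 8 h against 5 h there were 2, with 5 in the authors' values, 1 with only the groups compared, and 0 at an adjusted p under 0.01, with the other names, or without 5 h replicate 1 and 8 h replicate 3. For 15 h against 8 h there were 11, with 0 under a fixed and 4 under a random slide block, and 6 at an adjusted p under 0.01. For 24 h against 15 h there were 0, with 1 under the other names, and for the F test 13, with 8 under the other names. The fits with slide-matched controls or only the groups compared hold fewer arrays, and slide 1 has a lone control, assumed there to vary like the other arrays. Where the other alternatives moved a count, the cause was not tested.

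Leaving out 1 array at a time gave 8 to 12 at 10 min, 1 to 3 at 5 h, 0 to 0 at 8 h, 9 to 13 at 15 h, 9 to 13 at 24 h, 11 to 13 for 5 h against 10 min, 0 to 7 for 8 h against 5 h, 7 to 12 for 15 h against 8 h, 0 to 0 for 24 h against 15 h and 12 to 15 in the F test. The highest counts at 10 min, 15 h, 24 h and for 8 h against 5 h came without control replicate 2. Deviations of same-numbered arrays of different groups had a median correlation of -0.002 (range -0.59 to 0.45), against 0.012 for arrays of different numbers. Of 20 arrays, 4 correlated best with their own number. No pairing by replicate number was seen, but so few arrays per group cannot exclude a weak one. Under the replicate block 47 of the 60 calls still passed. Signal over background limits Tars probe 50440 and Mars2, detected on 5 and 9 of 20 arrays.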

Other observations

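Probes without a gene name whose identifier holds the gene number of a member were not counted as members. Iars2 (probe 4760204) and Cars2 (probe 2650538), mitochondrial enzymes for isoleucine and cysteine, were detected on 20 arrays each under such numbers, with differences of 0.08 and -0.04 at 10 min and 0.13 and -0.14 at 15 h, none past the test. Dars (probe 580427), the cytosolic aspartate enzyme, was detected on 0 arrays.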
